A study of Mus musculus with 2 samples.

Results

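Neutrophil lineage cells were examined in 2 single-cell RNA libraries of mouse knee articular cartilage, 1 made after sham surgery and 1 after DMM, in which the medial meniscus is destabilised and osteoarthritis follows. Both libraries came from wild-type mice, and each pooled the cells of 3 animals, so that the cells of single mice cannot be separated. Before capture the digested tissue had been sorted for live cells (Calcein AM positive, DAPI negative) that lacked CD45 (the pan-leukocyte surface protein), Ter119 (erythroid) and CD31 (endothelial). Members were cell barcodes with at least 500 genes, at most 10% mitochondrial UMIs (unique molecular identifiers, 1 per captured transcript), and S100a8 and S100a9 together at 20 or more UMIs and 1% or more of the cell's UMIs. Members were thus selected on their own S100a8 and S100a9 counts, and these values are given as a description. The rule took 40 of 9992 sham cells and 25 of 9889 DMM cells, 65 of 19881 in all.

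Neutrophils are short-lived granulocytes that mature in bone marrow and leave it for blood and inflamed tissue. Their granules are filled in sequence: promyelocytes make the azurophilic proteases and myeloperoxidase, myelocytes and metamyelocytes make the specific-granule proteins, and band cells make the gelatinases. Dividing stops at the myelocyte stage, and mature cells carry chemokine and growth factor receptors and transcribe inflammatory cytokines. S100a8 and S100a9 form calprotectin, a calcium- and zinc-binding protein pair that is among the most abundant products of the lineage. Healthy cartilage has no blood supply, while the marrow and the synovium of the joint lie close to it.

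Each condition had 1 library, so the conditions could not be tested against each other, and cells are not replicates of a condition. Bracketed 95% intervals cover counting error only and leave out variation between cells, mice and preparations. The members held 197530 UMIs in sham and 144131 in DMM. A member cell carried 873 to 22993 UMIs in sham (median 3288) and 1201 to 25802 in DMM (median 2811), below the kept cells of either library (medians of 8284 and 8046). No member barcode occurred in the other library, although 24 barcodes were shared by the libraries in all. Levels are given as CPM, the UMIs of a gene per 1000000 UMIs of the same cell or group of cells. The reads were taken at the 3' end of transcripts, so CPM is not divided by gene length, and levels are compared between cells for 1 gene rather than between genes.

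S100a8 (chr3:90668978-90670035, GRCm38) and S100a9 (chr3:90692632-90695721) are neighbours on mouse chromosome 3. Together they took 1.04% to 19.5% of a sham member's UMIs (median 11%) and 1.55% to 21.6% of a DMM member's (median 8.68%). The cells spread over the whole of that span in both libraries, with 48 of 65 at 5% or more and 6 below 2%. Just inside the limit lay a sham cell with 24 UMIs of the pair, 1.04% of its 2299 UMIs. Just outside lay a sham cell with 13 UMIs (0.768%) and a DMM cell with 129 UMIs among 26898 (0.480%). Beyond the members the pair was rare: 231 of 9952 other sham cells (2.32%) and 195 of 9864 other DMM cells (1.98%) carried any UMI of it, at 2.61 and 5.34 CPM.

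The label was checked against markers of other blood cells. Ptprc, the gene of CD45, had a UMI in 40 of 40 sham and 22 of 25 DMM members, although the sort had been set against CD45 protein. The 3 DMM members without it were all cells with specific-granule RNA. After each cell was thinned to 1000 UMIs (1 sham member was too shallow), Ptprc was found in 76.9% of sham and 56.0% of DMM members. It was found in 0.0502% and 0% of thinned chondrocytes and in no thinned erythroid cell. Without thinning these shares were 0.150% and 0.0639% of chondrocytes and 0.296% and 0.197% of erythroid cells, whose depth was greater (medians of 15652 and 13778 UMIs in chondrocytes, 6912 and 7333 in erythroid cells). All 12 markers of eosinophils, basophils and mast cells were at 0 in the members. So were 6 of 7 endothelial genes, 5 of 8 of dendritic cells and 9 of 13 of lymphoid cells. Of 15 monocyte and macrophage genes 6 were at 0, among them Ccr2, C1qa and Mrc1, and 9 were detected. Without thinning, Ly6c2 was in 40% of sham and 36% of DMM members, Csf1r in 10% and 8%, and Cd68 in 5% and 12%. The monocyte and macrophage list summed to 1220 CPM over sham members and 2081 over DMM members, against 10028 and 7517 in chondrocytes. It includes Fn1, fibronectin, found in 47.5% and 44% of members and in 98.8% and 98.3% of chondrocytes. The lymphoid genes detected were Ighm (15% of sham and 12% of DMM members), Ebf1 (10% and 12%), Nkg7 (2.5% and 12%) and Cd3d (0% and 8%).

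RNA of joint and red cells was present at a low level in most members. The erythroid list summed to 1043 CPM in sham and 382 in DMM members, against 300192 and 296498 in erythroid cells. The chondrocyte list summed to 9578 and 992 CPM, and the fibroblast and osteoblast list to 9026 and 1658. Per cell the chondrocyte list had medians of 1096 and 497 CPM, and the fibroblast and osteoblast list 1362 and 959. The highest sham values, 44540 and 55127 CPM, were both in a barcode of 13224 UMIs described below. A haemoglobin UMI was seen in 37 of 40 sham and 19 of 25 DMM members, at a median of 0.0724% and 0.0286% of a cell's UMIs. Hbb-bs, a beta globin gene, had a UMI in 20.5% of thinned sham members against 15.1% of thinned chondrocytes, and in 24.0% against 12.6% in DMM. Unthinned shares ran the other way, 67.5% against 84.4% in sham and 44% against 73.5% in DMM. Col2a1, the main cartilage collagen, was found in 30.8% of thinned sham and 12% of thinned DMM members, beside 17.8% and 11.6% of erythroid cells, which do not make it (62.5%, 36%, 60% and 42.5% without thinning).

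5 deep barcodes stood apart. They held 9251 to 22993 UMIs, while no other cell of the late range, defined below by low granule RNA, exceeded 5029. In these barcodes S100a8 and S100a9 made up only 1.23% to 2.84% of the RNA. Markers of chondrocytes and fibroblasts took 0.759% to 9.97% of their UMIs, against at most 0.573% in the shallower cells of the same kind. The sham barcode of 22993 UMIs carried 415 Col2a1 and 585 Sparc UMIs, and the one of 13224 UMIs carried 197 and 693 (Sparc encodes a collagen-binding matrix protein). Another sham barcode of 13798 UMIs carried 172 UMIs of Prg4, the gene of lubricin, and was the 1 member that the doublet caller Scrublet marked. Each of the 5 also held Retnlg, Il1b and Ptprc. How far these barcodes hold RNA of more than 1 cell was not tested. Sums over all members include them, and the late range is given with and without them.

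Granule genes divided the members. Cells were put in an azurophilic range when Mpo, Elane, Prtn3 and Ctsg together reached 0.5% of UMIs, otherwise in a specific-granule range when Camp, Ngp and Ltf reached 1%, and otherwise in a late range. The azurophilic range held 0 sham and 2 DMM cells, the specific-granule range 7 and 6, and the late range 33 and 17. These are ranges of a score rather than types. 3 cells lay within a factor of 2 of the azurophilic limit and 2 within a factor of 2 of the specific-granule limit, and 12 of the 50 late cells had some UMI of Camp, Ngp or Ltf.

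**Figure D1:**
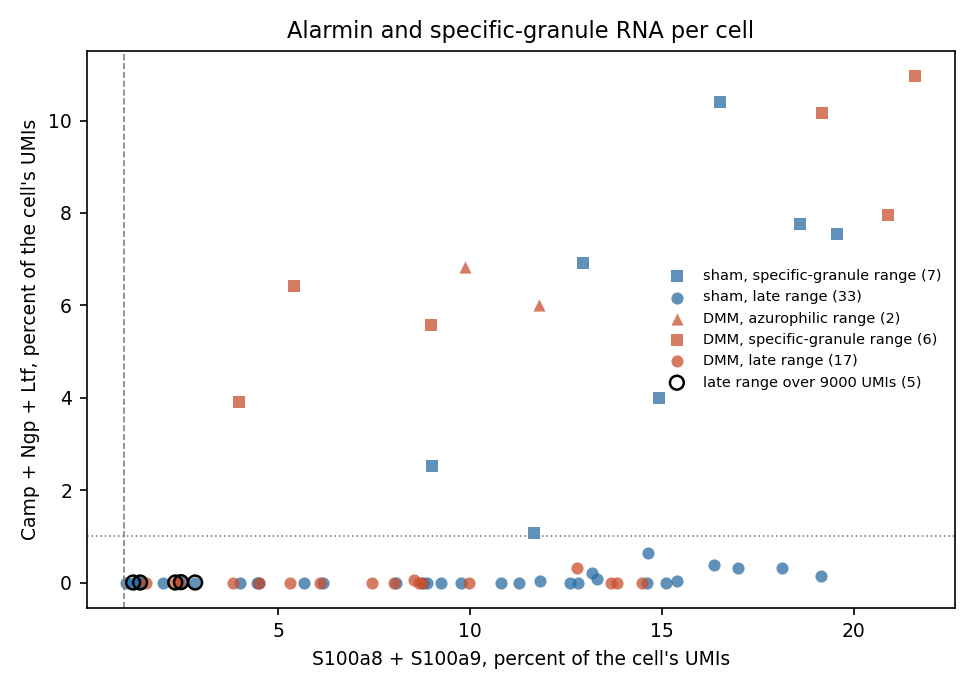
Each point is 1 member cell: the x axis is the percent of its UMIs from S100a8 and S100a9, the y axis the percent from Camp, Ngp and Ltf, with colour for the library and shape for the range; black rings mark the 5 late cells over 9000 UMIs and dotted and dashed lines the limits of 1%. The 15 cells of the granule ranges rise to 11% on the y axis, while the late cells lie along the bottom at every S100 share up to 19.2%.

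Elane, Prtn3, Mpo or Ctsg were found in 6 of the 65 cells. Elane, which encodes neutrophil elastase, had 15 UMIs in 1 sham cell, and 143, 43 and 27 in 3 DMM cells. In the same order of cells Prtn3 (proteinase 3) had 5, 83, 28 and 12 UMIs, Mpo (myeloperoxidase) 0, 13, 5 and 7, and Ctsg (cathepsin G) 2, 9, 4 and 4. These 4 cells were deeper than the median member, with 13646, 25802, 16565 and 8426 UMIs. Markers of chondrocytes and fibroblasts took 0.132%, 0.0659%, 0.501% and 0.498% of their UMIs. The median over the 15 cells of the granule ranges was 0.0752%. The DMM cell with 43 Elane UMIs missed the azurophilic limit by little, at 0.483%. Of these 4 cells, Retnlg and Il1b, genes of mature cells, were found only in the DMM cell of 25802 UMIs, with 45 and 48 UMIs, and it also held 94 of Cxcl2. Elane and Prtn3 were at 0 in all 45 late cells of at most 9000 UMIs, where 3 UMIs would be 23.5 CPM. Their summed level in the granule-range cells, which they helped to choose, was at least 69.8-fold and 39.8-fold higher, and that of Serpinb1a, an inhibitor of these proteases found in 12 of those 15 cells, at least 40.4-fold. Elane (chr10:79886247-79888215) and Prtn3 (chr10:79874476-79883174) are neighbours on chromosome 10.

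Camp, Ngp and Ltf set the specific-granule range and were also found in both azurophilic cells, so that all 15 granule-range cells held them. Camp, the cathelicidin precursor, ran from 1503 to 68716 CPM in the 7 sham cells (median 35082) and from 17158 to 66003 in the 8 DMM cells (median 46591). Ngp, neutrophilic granule protein, ran from 9018 to 30410 CPM (median 24916) in sham and from 11668 to 34977 (median 18291) in DMM. Ltf, which encodes the iron-binding lactoferrin, ran from 251 to 12642 CPM (median 4872) and from 155 to 10295 (median 8547). The 2 libraries overlapped over most of each span. The lowest Ltf values of DMM, 3, 4 and 7 UMIs, were in the 3 cells with Elane. Camp (chr9:109847379-109849617), Ngp (chr9:110419747-110423012) and Ltf (chr9:111019271-111042767) all lie on chromosome 9.

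Of the specific-granule genes that the range did not use, 13 had 50 UMIs or more. Over both libraries 9 of the 13 were at least 2-fold higher in the granule ranges than in the late cells of at most 9000 UMIs, and 1 was lower. Their median log2 ratio was 1.5, against -0.59 over all 856 genes with such counts, of which 21.5% were 2-fold higher in the granule ranges and 39% lower. Chil3, a chitinase-like lectin, stood at 4504 CPM against 7.85, with UMIs in 14 of 15 granule-range cells and 1 of 45 late ones. Lcn2, the siderophore-binding lipocalin, differed less, at 8388 against 2205 CPM (3.80-fold), and Lyz2, lysozyme, at 7235 against 4450. Slpi, a protease inhibitor counted in this list, went the other way, at 706 CPM against 2221, mostly through DMM (log2 ratio -0.18 in sham and -3.28 in DMM). Against the whole late range, deep barcodes included, 16.3% of 1163 genes were at least 2-fold higher in the granule ranges and 35.1% lower.

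**Figure D2:**
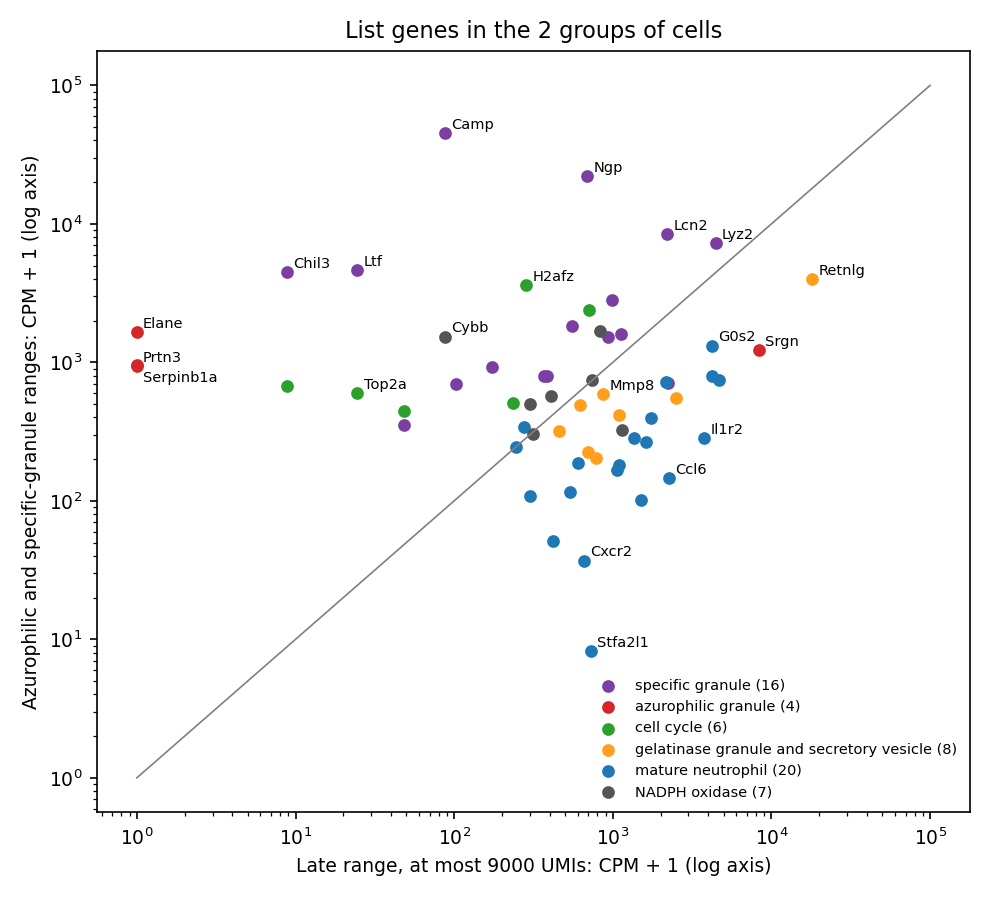
Each point is 1 list gene with 50 UMIs or more: its summed level over both libraries in the 45 late cells of at most 9000 UMIs (x axis, CPM + 1, log axis) against the 15 cells of the azurophilic and specific-granule ranges (y axis, CPM + 1, log axis), coloured by list. Cell-cycle genes, and specific-granule and azurophilic genes other than Slpi and Srgn, lie above the diagonal line of equality, and Retnlg, Cxcr2, Ccl6, Il1r2 and Stfa2l1 below it.

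Other genes of immature granulocytes were seen in the same cells. Fcnb, a ficolin of the complement lectin pathway, had UMIs in 2 of 7 sham and 8 of 8 DMM granule-range cells and in 0 of 45 late cells, at least 57.5-fold apart in summed level. Cebpe, the transcription factor needed for specific granules, was found in 5 of 7 and 6 of 8 granule-range cells and in 1 of 45 late cells (432 against 7.85 CPM). All 6 precursor genes with enough UMIs, range genes left out, were at least 2-fold higher in the granule ranges, beside 21.5% of all 856 genes. Within sham alone 5 of them were, with no share of all genes counted for that library.

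Short stretches before the start of 6 granule genes are shown because these genes mark the successive ranges. Windows of 250 bases before the RefSeq start (GRCm38.p6) were searched on both strands for 2 motifs of granulocyte transcription factors. These were a C/EBP half-site pair, TTGCNNAA, which reads TTNNGCAA on the other strand, and an ETS core as bound by PU.1, GAGGAA, which reads TTCCTC on the other strand. The C/EBP letters were in the window of 7 of 17 searched granulocyte genes and in 9.57% of 32841 mouse windows. The ETS letters were in 10 of 17 and in 23.3%. All 4 of the azurophilic genes Elane, Prtn3, Mpo and Ctsg held the ETS letters and none the C/EBP letters, while the C/EBP letters stood before Ngp, Ltf, Lcn2, Fcnb, Retnlg, Mmp8 and S100a9. Camp and Chil3 held neither, and the ETS letters also stood before S100a8, Ltf, Lcn2, Mmp8, Cxcr2 and Csf3r. Here, before refers to the RefSeq start. The whole windows of Prtn3 and Lcn2, and the match of Csf3r, lay past the annotated gene start used for the coordinates above. A match is a description of letters and does not show binding. The windows are printed 5' to 3' on the gene's strand, ending before the annotated transcript start, with capitals for the C/EBP letters in the first 4 and the ETS letters in the last 2.
Ngp, chr9:110419558-110419746, plus strand: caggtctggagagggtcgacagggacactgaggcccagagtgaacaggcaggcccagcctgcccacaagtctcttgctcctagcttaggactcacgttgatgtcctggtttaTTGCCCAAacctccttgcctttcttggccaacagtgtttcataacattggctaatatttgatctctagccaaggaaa
Ltf, chr9:111019042-111019270, plus strand: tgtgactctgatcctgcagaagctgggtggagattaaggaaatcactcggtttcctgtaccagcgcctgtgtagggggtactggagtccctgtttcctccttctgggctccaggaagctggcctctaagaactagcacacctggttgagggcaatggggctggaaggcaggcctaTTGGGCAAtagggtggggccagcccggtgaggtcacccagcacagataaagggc
Fcnb, chr2:28084886-28085128, minus strand: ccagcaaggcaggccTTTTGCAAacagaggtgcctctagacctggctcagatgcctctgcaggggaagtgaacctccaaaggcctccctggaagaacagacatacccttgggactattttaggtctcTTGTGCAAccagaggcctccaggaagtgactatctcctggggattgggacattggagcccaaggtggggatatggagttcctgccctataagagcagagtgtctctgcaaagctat
Mmp8, chr9:7558179-7558428, plus strand: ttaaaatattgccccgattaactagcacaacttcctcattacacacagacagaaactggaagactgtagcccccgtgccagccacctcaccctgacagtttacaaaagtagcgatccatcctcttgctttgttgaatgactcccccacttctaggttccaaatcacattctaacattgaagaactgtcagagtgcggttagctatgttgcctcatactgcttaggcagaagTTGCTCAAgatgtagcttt
Elane, chr10:79886062-79886246, plus strand: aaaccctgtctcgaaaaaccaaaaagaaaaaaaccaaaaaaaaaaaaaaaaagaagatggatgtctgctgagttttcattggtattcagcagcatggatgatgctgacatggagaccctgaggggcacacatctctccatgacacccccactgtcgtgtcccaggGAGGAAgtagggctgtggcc
Ctsg, chr14:56102575-56102824, minus strand: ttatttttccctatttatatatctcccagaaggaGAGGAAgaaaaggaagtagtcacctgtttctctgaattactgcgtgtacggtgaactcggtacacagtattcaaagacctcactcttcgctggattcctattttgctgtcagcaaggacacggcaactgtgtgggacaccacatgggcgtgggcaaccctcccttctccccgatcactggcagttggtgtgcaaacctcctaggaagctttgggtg
The second C/EBP match of Ngp lies 11 bases before the RefSeq start, past the end of the printed stretch, and Ltf and Mmp8 also hold the ETS letters, printed in lower case.

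Gelatinase-stage genes split the granule-range cells further. Retnlg, a resistin-like secreted protein of band and mature neutrophils, had 83, 98, 145, 24 and 107 UMIs in 5 of the 7 sham cells and 0 in the other 2. In DMM it had 49, 45 and 1 UMIs in 3 of 8 cells and 0 in the others. Mmp8, neutrophil collagenase, was in the same 5 sham cells, with 8 to 28 UMIs, and in 1 DMM cell with 1 UMI. The sham cells without these genes were the 2 with Prtn3. In the late range Retnlg was in 27 of 29 sham cells of at most 9000 UMIs (0 to 49824 CPM, median 13251) and in 14 of 16 DMM cells (0 to 65244, median 6858). The libraries differed in how the granule ranges compared with those late cells. In sham the summed Retnlg level was 10402 CPM in the granule ranges and 20211 in the late cells, although the median cell was higher in the granule ranges (20388 against 13251). In DMM the sums were 1002 and 13313. Mmp8 was higher in the sham granule ranges (1844 against 984 CPM, log2 ratio 0.91) and lower in the DMM ones (10.5 against 624, log2 ratio -5.89). Mmp9, gelatinase B, was at 979 against 1053 CPM in sham and at 158 against 1174 in DMM. Hdc, the histamine-making enzyme, was lower in the granule ranges of both (log2 ratios of -1.70 and -2.56). Pooled over the libraries, 5 of 8 gelatinase and secretory vesicle genes were at least 2-fold higher in the late cells, beside 39% of all 856 genes. In sham alone 1 was and in DMM alone 6 were. The share of all genes was not counted within single libraries, so how far these 2 counts are particular to the list was not tested.

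Genes of the oxidase that makes superoxide were measured subunit by subunit. Cybb, its membrane-bound catalytic subunit gp91phox, was in 15 of 15 granule-range cells (251 to 3946 CPM, median 1512) and in 7 of 45 late cells, at 1535 against 86.3 CPM in sum. Its partner Cyba, p22phox, was at 1693 against 832 CPM. Ncf1 (p47phox, 569 against 408), Ncf4 (p40phox, 497 against 298) and the GTPase Rac2 (742 against 738) were within 2-fold.

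Division genes were also concentrated there. Top2a, topoisomerase II alpha, had UMIs in 2 of 7 sham and 7 of 8 DMM granule-range cells (at most 660 and 2125 CPM), and in 2 of 45 late cells. Mki67, the proliferation antigen, was in 3 of 7 and 6 of 8, and in 6 of 45. H2afz, a histone variant, stood at 3596 against 283 CPM and Stmn1, stathmin, at 670 against 7.85. All 6 cell-cycle genes with enough UMIs were at least 2-fold higher in the granule ranges over both libraries, beside 21.5% of all 856 genes. In sham alone, however, Cks2, a kinase subunit, was lower there (log2 ratio -0.74). Erythroid cells of the same libraries carried more of the list, 16193 CPM in sham and 16093 in DMM, than the members did (3822 and 8867).

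**Figure D3:**
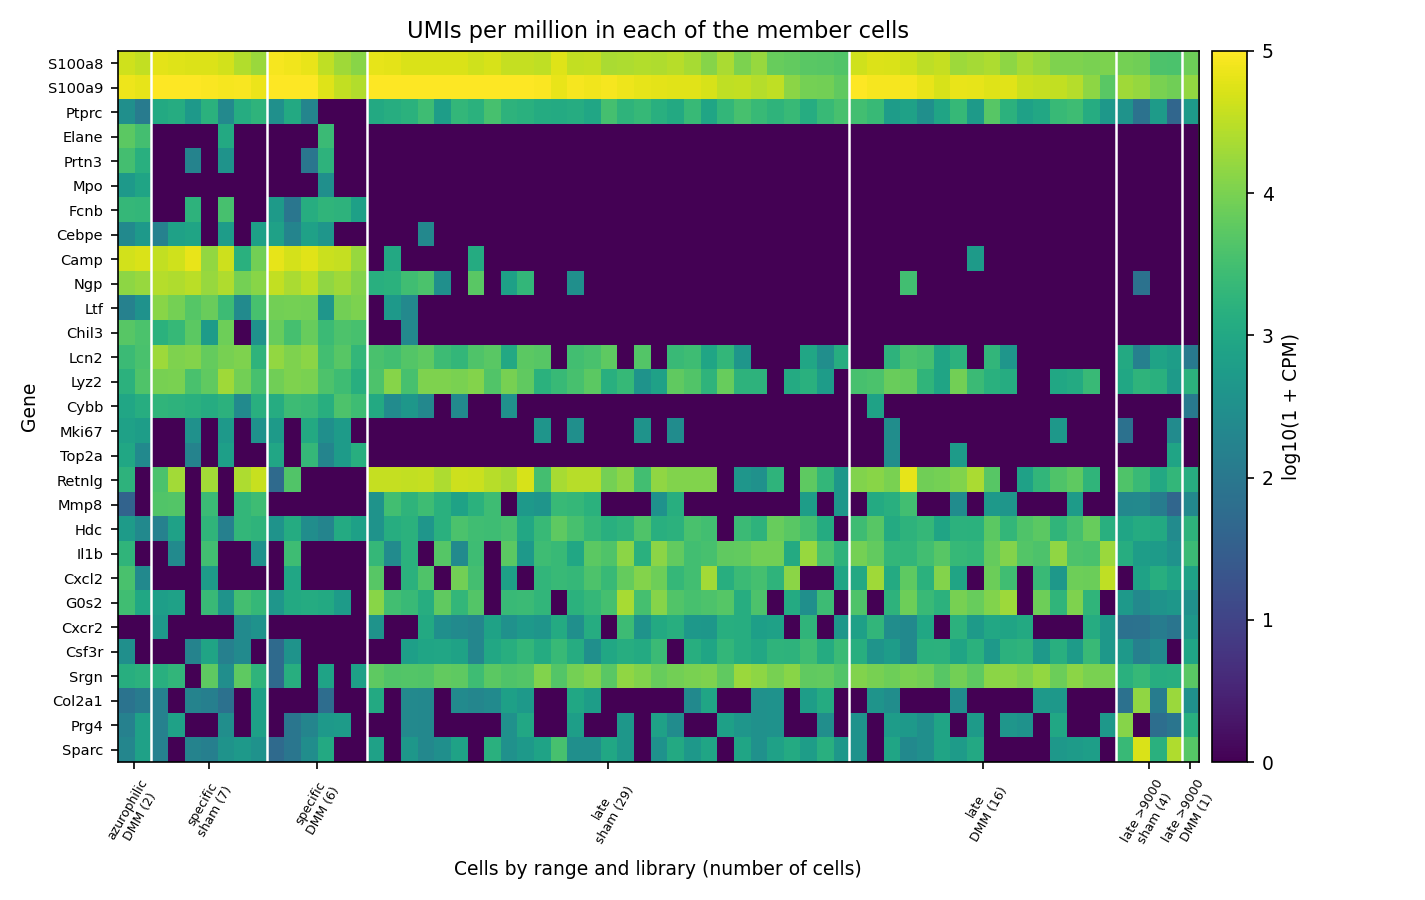
Columns are the 65 member cells, ordered by range, library and S100 share, with white lines between groups and the number of cells in brackets; rows are genes, and colour is log10(1 + CPM) in the single cell. Elane, Prtn3, Mpo and Fcnb are dark in all late cells, Camp fills the 15 granule-range cells, and Retnlg, Il1b, Cxcl2 and Cxcr2 fill most of the late ones.

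Late cells carried the genes of mature neutrophils. In all 18 of 20 mature-neutrophil genes were at least 2-fold higher in late cells of at most 9000 UMIs than in the granule ranges, with a median log2 ratio of -2.51, beside 39% of all 856 genes. Within sham alone 15 of the 20 were, and within DMM alone 19, with no share of all genes counted within single libraries. Cxcr2, the receptor for neutrophil-attracting chemokines, was in 36 of 45 late cells and 3 of 15 granule-range cells (659 against 36 CPM, 18.3-fold). Il1r2, the decoy receptor of interleukin 1, was at 3783 against 281 CPM (13.5-fold), and Csf3r, the receptor of the growth factor G-CSF, at 1067 against 166 (6.44-fold). Of the receptors of trafficking and sensing, 7 of 8 were 2-fold higher in the late cells. Stfa2l1, a stefin, was at 730 against 7.21 CPM, a log2 ratio of -6.66 [-11.98, -4.15] from 1 UMI in the granule ranges. Stefin genes have near-identical copies, which the deposited counting may have split.

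Cytokines and chemokines belonged to the same cells. Il1b, interleukin 1 beta, ran from 0 to 16773 CPM in the 29 sham late cells of at most 9000 UMIs (median 3003) and from 1919 to 17857 in the 16 DMM ones (median 4300). Cxcl2, a neutrophil chemoattractant, ran from 0 to 20282 (median 2291) and from 0 to 32895 (median 2693). Each library thus held cells without Cxcl2, and in 1 cell of each more than 2% of the RNA came from it. Against the granule ranges Il1b was 6.30-fold and Cxcl2 5.34-fold higher, and Ccl6, a CC chemokine, 15.6-fold. All 6 tested chemokine and cytokine genes were at least 2-fold higher in the late cells, beside 39% of all 856 genes. The 6 included Il15, an interleukin that sustains lymphocytes (722 against 28.8 CPM), and Osm, oncostatin M (542 against 57.6).

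The regulators differed from gene to gene. Cebpb, a C/EBP factor of emergency granulopoiesis, was 3838 CPM in the late cells against 735, and the AP-1 subunit Junb 2354 against 353. Spi1, which encodes PU.1, differed less, at 651 against 440, and Runx1 at 526 against 389. Of 8 granulocyte transcription factors 1 (Cebpe) was 2-fold higher in the granule ranges and 3 in the late cells. Mcl1, the survival factor on which neutrophils depend, was at 2331 against 569 CPM, and the kinase gene Pim1 at 965 against 108. 6 of 9 NF-kB and stress genes were at least 2-fold higher in late cells and none lower. For the interferon-response list it was 3 of 7, a share near the 39% of all genes. The glycolysis genes were even on the whole, 2 of 8 higher each way. They included Hif1a, the hypoxia-stabilised factor (502 in late cells against 93.7), and Ldha, lactate dehydrogenase A (188 against 425).

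Depth and mitochondrial RNA moved with the ranges. Granule-range cells had a median of 7083 UMIs and 2068 genes, late cells of at most 9000 UMIs 2773 UMIs and 1107 genes. Mitochondrial genes gave a median of 0.759% of UMIs in the former (0.127% to 5.07%) and 0.171% in the latter (0% to 7.76%, with 2 cells above 1%, both from DMM). In the 5 deep late barcodes they gave 0.957% to 2.10%, near the medians of chondrocytes (1.94% in sham and 2.13% in DMM). Ribosomal protein genes took a median of 3.70% in the granule ranges, 2.06% in the late cells and 4.82% in the deep barcodes. The part of depth in these differences was not tested.

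**Figure D4:**
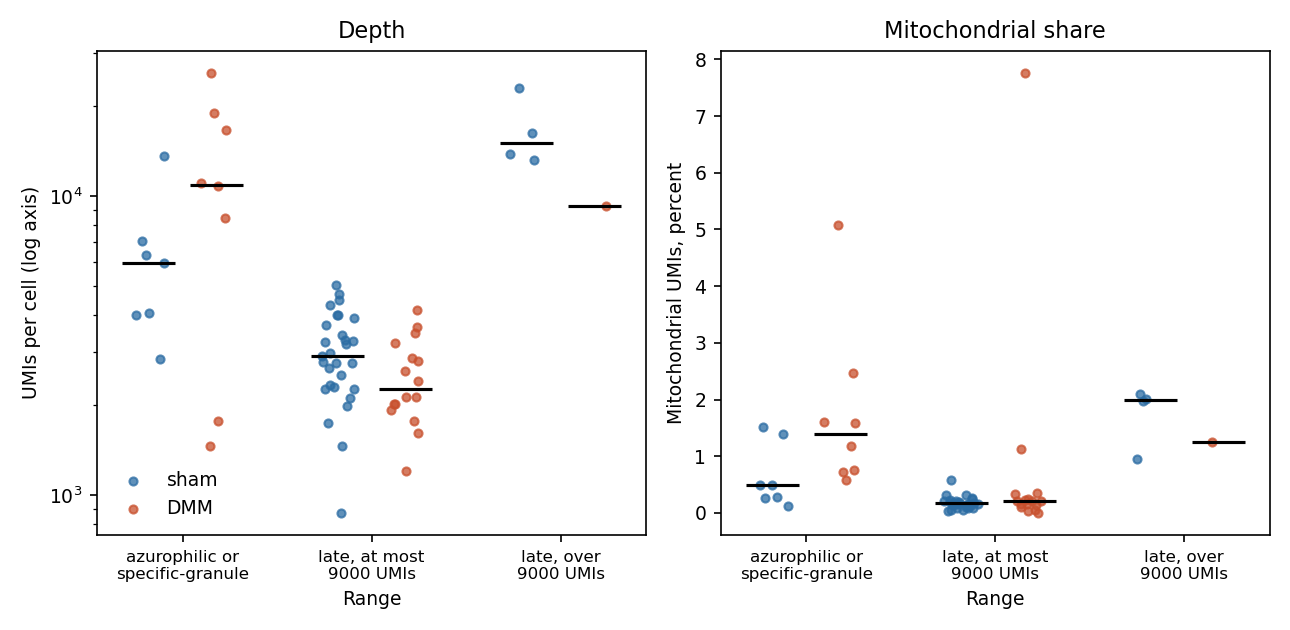
Points are member cells by range, blue for sham and orange for DMM, with black bars at medians: UMIs per cell on a log axis at left, mitochondrial UMIs as a percent of the cell's UMIs at right. The late cells of at most 9000 UMIs lie between 873 and 5029 UMIs, mostly below 0.6% mitochondrial UMIs, and the late barcodes over 9000 UMIs lie above 0.9%.

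Within the late range, cells also varied in Retnlg and in the genes that rose or fell with it. In cells of at most 9000 UMIs, Spearman's rho between Retnlg and S100a8 was 0.82 over 29 sham cells and 0.70 over 16 DMM cells, and between Retnlg and Lyz2 0.70 and 0.75. Retnlg and Il1b ran against each other, at -0.50 and -0.56. With the deep barcodes these were -0.33 and -0.50. Without the deep barcodes, Retnlg and Cxcl2 were nearly unrelated, at -0.06 and -0.15. In the same cells Il1b stood at 0.01 and 0.27 with Cxcl2, and at 0.34 and -0.13 with G0s2. With the chemokine gene Ccl4 it stood at -0.02 and 0.36. These are descriptions: the cells of a library share its preparation and depth, S100a8 was part of the rule, and each level is a share of the same total.

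Across all members the genes most like S100a8 were ranked by the smaller rho of the 2 libraries (40 and 25 cells), among 4059 genes with a UMI in at least 10% of members of each library. S100a9 led at 0.90, followed by Ly6c2 (0.66), Lyz2 (0.65), Pglyrp1 (0.63), Wfdc21 (0.62), Ly6g (0.59), Lcn2 (0.58), Arhgdib (0.58), Ifitm6 (0.57) and Ngp (0.53). Ly6g is the antigen by which mouse neutrophils are usually sorted, and Pglyrp1 is a peptidoglycan-binding granule protein. Ly6c2 sits in the monocyte and macrophage list.

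The share of neutrophil lineage cells was 0.400% [0.286, 0.545] of kept sham cells and 0.253% [0.164, 0.373] of kept DMM cells. The ratio of DMM to sham was 0.632 [0.367, 1.07], an interval that includes 1. A difference was therefore not detectable at these numbers of cells, and since the sort was set against CD45, the share is not that of neutrophils in the tissue. The azurophilic and specific-granule ranges made up 17.5% [7.34, 32.8] of sham and 32.0% [14.9, 53.5] of DMM members, a ratio of 1.83 [0.579, 5.92], which likewise includes 1. A UMI of Mki67 or Top2a was in 22.5% [10.8, 38.5] of sham and 40% [21.1, 61.3] of DMM members.

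Summed over all members, the DMM cells carried more azurophilic, specific-granule and division RNA, and less of the gelatinase list. The specific-granule list summed to 31585 CPM in sham and 73405 in DMM, but its per-cell medians were 14434 and 14852. For the cell-cycle list the sums were 3822 and 8867 CPM and the medians 1431 and 1665. The gelatinase and secretory vesicle list summed to 17375 and 8138 CPM. The granule ranges held 43932 of 197530 sham UMIs and 94843 of 144131 DMM UMIs. Of 1163 genes with 50 UMIs or more, 70 were at least 2-fold higher in DMM (6.02%) and 143 at least 2-fold lower (12.3%), with a median log2 ratio of -0.16. Prtn3 (log2 ratio 4.82 [3.66, 6.30]), Elane (4.28 [3.53, 5.15]), Camp (2.11 [2.03, 2.19]), Chil3 (1.94 [1.68, 2.20]) and Top2a (1.84 [1.21, 2.51]) were among the 12 highest named by the rule. The other 7 were Dcn, Plac8, Hmgn2, Pclaf, Hist1h2ap, Mki67 and Tagln2, at 1.76 to 2.26, several of them genes of dividing cells. Dcn sits in the fibroblast and osteoblast list. The ratios come from few cells: 67.1% of the DMM Elane UMIs lay in 1 cell, and Camp reads came from 9 cells in each library. Among the most abundant genes S100a9 stood at 59388 and 78526 CPM, Ngp at 5422 and 14501, and Lyz2 at 4966 and 4704, while Retnlg was lower in DMM, at 12034 and 4440. S100a9 was part of the rule, and its per-cell median ran the other way, at 7.52% of UMIs in sham members and 6.05% in DMM members. The sums also include the deep barcodes, where S100a8 and S100a9 made up 1.23% to 2.84% of UMIs. Of 16 specific-granule genes 5 were 2-fold higher and none lower. Of 8 cell-cycle genes, 5 were higher and none lower. Of 8 gelatinase and secretory vesicle genes, 1 was higher and 3 were lower. Since UMIs are pooled, these ratios carry the mix of ranges: in late cells of at most 9000 UMIs, Camp had a log2 ratio of -2.20 [-7.64, 0.62] from 10 sham UMIs and 1 DMM UMI.

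The lowest ratios came from the deep barcodes. All 11 tested chondrocyte genes were at least 2-fold lower in DMM, with a median log2 ratio of -3.59. So were 4 of 5 fibroblast and osteoblast genes, beside 12.3% of all 1163 genes. Col9a1, a cartilage collagen chain, had 96 UMIs in sham members and 0 in DMM (at least 23.3-fold lower), and 90 of the 96 were in the 4 deep sham barcodes. For Gpc6, a glypican, it was 83 of 83, and for Serpina1a, a protease inhibitor gene with near-identical copies, 105 of 109. Cnmd, Csmd1, Fxyd2 and Col12a1, with 53 to 82 sham UMIs, were likewise at 0 in DMM, and Plod2, Ppa1, Col11a2 and Hspa1a had 1 to 4 DMM UMIs. Of these genes the share in the deep sham barcodes was smallest for Hspa1a, a heat shock gene, at 75 of 82 UMIs. Those 4 barcodes held 43.1% of the UMIs of sham late cells, and the deep DMM barcode 18.8% of the DMM ones. Without them none of the chondrocyte genes reached 50 UMIs in the late range.

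In the late range as a whole, 7.28% of 714 genes were at least 2-fold higher in DMM and 13.4% lower. Without the 5 deep barcodes (29 sham and 16 DMM cells, 87380 and 40037 UMIs), 13 of 420 genes (3.1%) were at least 2-fold higher and 19 (4.52%) lower, around a median of -0.02. Most neutrophil genes differed by less than 2-fold between the libraries in these cells. Csf3r had 1087 CPM in the sham cells and 1024 in the DMM cells, a log2 ratio of -0.09 [-0.65, 0.46], Cxcr2 629 and 724 (0.20 [-0.50, 0.88]) and Il1r2 3582 and 4221 (0.24 [-0.04, 0.51]).

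Beside the 3.1% of all 420 genes, 0 of 6 chemokines and cytokines were 2-fold higher in these DMM late cells (median log2 ratio 0.54). It was 1 of 5 interferon-response genes (median -0.22) and 1 of 7 NF-kB and stress genes (median 0.68). It was also 2 of 17 mature-neutrophil genes, 1 of 7 receptors of trafficking and sensing, and 1 of 8 gelatinase and secretory vesicle genes. In these lists only 1 gene, of the mature list, was 2-fold lower. How far such small counts differ from the share of all genes was not tested. Cd14, the co-receptor for bacterial lipopolysaccharide, ran from 0 to 2205 CPM in sham (median 0, with UMIs in 11 of 29 cells) and from 0 to 5757 in DMM (median 659, in 11 of 16), with a log2 ratio of 2.03 [1.38, 2.71]. Of its 58 DMM UMIs 24 lay in 1 cell. Ptgs2, the inducible prostaglandin synthase COX-2, had UMIs in 9 of 29 and 14 of 16 cells (medians of 0 and 843 CPM, log2 ratio 1.06 [0.41, 1.70]). Tnfaip2 was in 13 of 29 and 13 of 16 (1.51 [0.68, 2.36]). The per-cell spans of all 3 genes overlapped between the libraries. Slpi stood at medians of 1230 and 2922 CPM (1.07 [0.73, 1.42]) and Ifitm2, an interferon-induced membrane protein and the 1 gene of its list to reach 2-fold, at 1845 and 4154 (1.00 [0.68, 1.32]). Spp1, osteopontin, had the highest ratio, 2.17 [1.32, 3.07], but 30 of its 37 DMM UMIs lay in 1 cell, and both medians were 0. It was named after its values were seen. Il1b (0.46 [0.21, 0.70]), Cxcl2 (0.68 [0.43, 0.93]) and G0s2 (0.58 [0.33, 0.84]), an inhibitor of triglyceride breakdown, were higher by less than 2-fold.

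The genes lower in the DMM late cells included granule genes. Lcn2 had UMIs in 23 of 29 sham and 7 of 16 DMM cells, with medians of 2421 and 0 CPM and a log2 ratio of -1.26 [-1.76, -0.80]. Ngp was in 9 of 29 and 1 of 16, so that all 13 DMM UMIs came from 1 cell (-1.40 [-2.38, -0.54]). Anxa1, annexin A1, was in 18 of 29 and 7 of 16 (-1.63 [-2.83, -0.62]). Annexin A1 is a glucocorticoid-induced protein that restrains neutrophil recruitment. Retnlg had 20211 CPM in sham cells and 13313 in DMM cells (-0.60 [-0.74, -0.46]), S100a8 33040 and 28424, and S100a9 74193 and 60244. Of 8 specific-granule genes 3 were 2-fold lower and 1 higher, with a median of -0.41, beside 4.52% and 3.1% of all 420 genes. 2 mitochondrial genes were higher in DMM as well, mt-Co3 at 343 and 1249 CPM and mt-Atp6 at 446 and 1648, but 29 of 50 and 42 of 66 DMM UMIs of these genes lay in 1 cell each, and 1 DMM cell had 7.76% mitochondrial UMIs; these genes were chosen after their values were seen. The DMM cells were also shallower, with a median of 2273 UMIs against 2910, and the part of that in the cell counts was not tested.

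**Figure D5:**
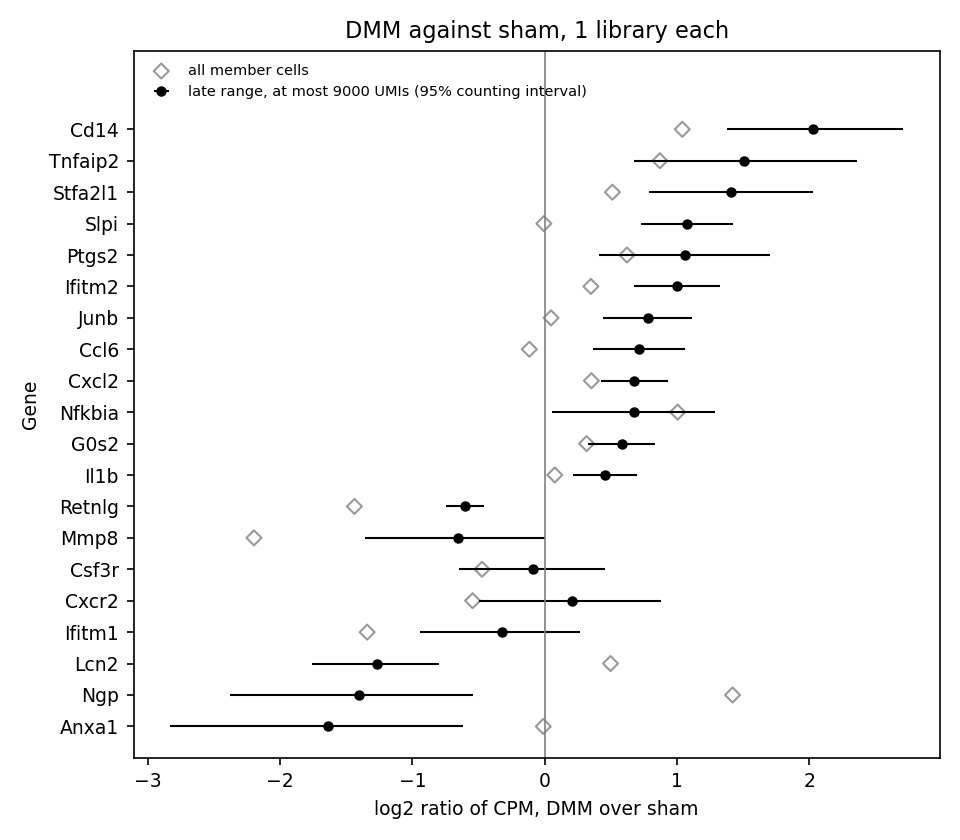
Black points are log2 ratios of DMM over sham CPM in late cells of at most 9000 UMIs (29 sham and 16 DMM cells) with 95% counting intervals, and grey diamonds the same ratio over all 40 and 25 members; the vertical line marks equal levels. Cd14 and Tnfaip2 lie to the right, Anxa1 to the left, and the diamonds of Ngp and Lcn2 lie on the other side of the line from their black points.

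In the granule ranges, with 7 sham and 8 DMM cells, 45 of 337 genes (13.4%) were at least 2-fold higher in DMM and 35 (10.4%) lower. The later gelatinase genes were lower: Mmp8 was 1844 CPM in sham and 10.5 in DMM, from 1 UMI (log2 ratio -7.45 [-12.77, -4.93]), Retnlg 10402 and 1002 (-3.38 [-3.71, -3.05]) and Mmp9 979 and 158 (-2.63 [-3.58, -1.75]). Prtn3 (137 and 1307 CPM), Elane (341 and 2246) and Top2a (228 and 770) were higher. Fn1, fibronectin, which sits in the monocyte and macrophage list and is also made by joint cells, was at 91.0 and 1845 CPM, in 3 of 7 and 5 of 8 cells. Camp (34485 and 50589 CPM) and Cybb differed by less than 2-fold.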

How the data were processed

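Droplet-based 3' single-cell RNA libraries of sham and DMM knee cartilage were used, 1 per condition, each from 3 pooled mice. The authors deposited unnormalised UMI counts per gene and barcode; the submitters' processing notes name Cell Ranger 3.0.1 and mm10, while the file header names Cell Ranger 7.1.0, so the version that made these counts is uncertain. Members, ranges, comparison cells (erythroid: haemoglobin genes at 10% of UMIs or more; chondrocytes: Col2a1 and Acan at 20 UMIs and 1% or more) and 26 gene lists were chosen with earlier results of these data known. UMIs were summed by library and range, given as CPM, and compared for genes with 50 UMIs or more. Ratios carry exact conditional binomial intervals and shares exact Clopper-Pearson intervals, both at 95% and covering counting error only. A fold against a group at 0 is a lower bound at a floor of 3 counts over the group. Genes named for the DMM comparison were list members, the 20 most abundant, and the 12 highest and 12 lowest ratios that reached 100 CPM in 1 library, had an interval excluding 1, and held their direction under median-of-ratios scaling and when each library's top cell was dropped (mitochondrial, ribosomal, haemoglobin and unnamed gene models left out). Thinning drew 1000 UMIs per cell. Doublets were marked with Scrublet (scanpy 1.11.5) and kept. Barcodes over 9000 UMIs in the late range were set apart after the data were seen. On simulated counts of 1163 genes, intervals left out equality for 89% of genes changed 2-fold and 3.43% of unchanged ones. These counts were drawn with counting error alone. They therefore cannot show the error rate where the UMIs of a gene gather in single cells, as they do here for several genes. A deposited bulk table, whose columns match no sample label, was not used here. Python 3.11.15, numpy 2.4.6, scipy 1.17.1 and pandas 2.3.3 were used. A few genes that these rules name are not reported here.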

Additional observations from a re-analysis of the deposited data

How the results depend on the processing

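No paired analysis was possible because each group has 1 library, and for the same reason no replicate could be left out. The shares of neutrophil lineage cells kept within their intervals under every member rule tried, at 0.290% to 0.421% in sham and 0.169% to 0.262% in DMM, and the counts of genes between granule and late ranges within 1.5 times. Values of the DMM comparison moved more, and the cause was not tested; values below are median log2 ratios of lists or gene counts. Over all members the medians were 2.73 for the azurophilic, 0.48 for the specific, -0.67 for the gelatinase, -0.26 for the mature, 1.53 for the cell-cycle, 0.10 for the NF-kB and -3.59 for the chondrocyte list. With 50 S100 UMIs and 5% the gelatinase list was -1.45 and the mature list -0.79. Without the 20 most abundant genes the azurophilic list was 4.38. With 20 UMIs as minimum 252 genes were higher, 431 lower and the azurophilic list was 1.82; with 100 UMIs 38 were higher and 52 lower. Thinned to 1000 UMIs, 5 were higher and 7 lower, the gelatinase list -0.040 and the mature list, with the other sign, 0.16. In the late range alone the specific list reversed to -0.16 and the gelatinase list to 0.41, the mature list also changed sign, to 0.76, the chondrocyte list was -2.58, and Camp (-1.68), Hmgn2 (-0.36), Top2a (-1.02) and Mki67 (-0.82) reversed. In the specific-granule range alone 10 genes were higher and 26 lower, the azurophilic list (-0.76) and Plac8 (-1.05) reversed, and the specific, gelatinase and cell-cycle lists were 0.14, -2.31 and 0.49. The remaining settings were chosen after seeing the data. Without late barcodes over 9000 UMIs 108 genes were higher and the mature list was -0.71. In the late range without them 13 were higher and 19 lower, the specific list (-0.41), the gelatinase list (0.0058), Dcn (-0.044), Camp (-2.20) and Hmgn2 (-0.27) reversed, the mature list was 0.22, also with the other sign, and the NF-kB list 0.68. With each cell weighted equally the specific, cell-cycle and chondrocyte lists were 0.25, 1.00 and -1.99. Lists with fewer than 3 tested genes gave no value. With 65 cells, genes under 50 UMIs could not be compared.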
